A study of Mus musculus with 6 samples.

Results

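Malat1, Neat1, Miat and Snhg11 are long noncoding RNAs, transcripts without a long open reading frame that are kept mostly in the nucleus. They were taken by gene symbol from the deposited table, and all 4 were found among its 24419 genes. The libraries were made from peri-infarct cerebral cortex of male mice whose middle cerebral artery had been blocked for 60 min, with the tissue taken on day 4. The 3 libraries labelled cKO came from Slc17a7-cre; Slc32a1-cre; Padi4flox/flox mice, and the 3 labelled control from Padi4flox/flox mice. Both groups therefore carried the floxed Padi4 alleles and the stroke, and no uninjured tissue and no Cre carrier without floxed alleles was analysed here. Slc17a7 and Slc32a1 drive Cre in glutamatergic and GABAergic neurons, so other cells in the tissue would keep Padi4. Tissue of both groups was treated with pronase for 75 min. Cells were sorted as Thy1+ and as ACSA2-, CD31-, CD45- and O4-, a gate meant to enrich neurons. The comparison asked whether RNA levels in neurons differ when Padi4 is deleted.

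Malat1 collects in nuclear speckles, bodies rich in pre-mRNA splicing factors. Neat1 is the scaffold on which paraspeckles form, together with the RNA-binding proteins SFPQ and NONO. Miat, also called Gomafu, is enriched in neurons and forms nuclear spots of its own that bind splicing factor 1. Snhg11 is a small nucleolar RNA host gene, a gene whose introns carry small nucleolar RNAs, and its transcript is abundant in neurons of the mouse brain. Malat1 and Neat1 lie side by side, and the 3′ ends of Malat1 and of the long Neat1 transcript are not made by ordinary polyadenylation: RNase P cuts there and releases a tRNA-like RNA.

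The libraries held between 10094145 and 24056755 recovered reads. Padi4, the deleted gene, had 0, 3 and 12 reads in the libraries labelled cKO 1, 2 and 3, and 0 reads in each of the 3 labelled control. The targeted gene thus did not bear out the labels, and the groups are called by their labels throughout. Replicate 2 of each label had the fewest detected genes, 14042 in the library labelled cKO and 15261 in the one labelled control, against 16818 to 17891 in the other 4. Marker genes also went against a purely neuronal content. The summed level of 10 oligodendrocyte markers was 32657, 21012 and 11280 in the libraries labelled cKO and 27311, 21899 and 21990 in those labelled control. The summed level of 12 neuronal markers was 1614, 5050 and 7968 in the libraries labelled cKO and 2896, 4860 and 3182 in those labelled control. All 6 libraries thus held more reads of the oligodendrocyte genes than of the neuronal genes, and the cells are not called neurons here. In such bulk libraries, fewer cells of a type and less RNA per cell cannot be told apart. All levels are deposited depth-scaled read counts (CPM) that had been rescaled per library, and the values of a group are given in the order of replicates 1, 2 and 3.

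Malat1 was the second most abundant gene in all 6 libraries, after Rn45s, the ribosomal RNA precursor. Its level was 39435, 47277 and 10964 CPM in the libraries labelled cKO, against 27320, 35379 and 25613 CPM in those labelled control. The groups overlapped, with the highest and the lowest value both in the group labelled cKO. Malat1 alone made up 3.95%, 4.64% and 1.08% of the total in the libraries labelled cKO, against 2.79%, 3.68% and 2.49% in those labelled control. Between 260470 and 821945 reads stood behind each value, so counting error was negligible beside the 4.31-fold gap between the highest and the lowest library. The mean was 32558 ± 19108 CPM in the libraries labelled cKO and 29437 ± 5216 CPM in those labelled control (SD, n = 3 each).

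Neat1 varied most. Its level was 2453, 4885 and 307 CPM in the libraries labelled cKO, against 1550, 1275 and 4759 CPM in those labelled control. The groups overlapped over nearly their whole range, and cKO 2 and control 3 stood well above the other 4 libraries. The rank of Neat1 among all genes ran from 4 in the library labelled cKO 2 and 5 in the one labelled control 3 to 472 in the one labelled cKO 3. Even this lowest value rested on 7299 reads, with an exact Poisson 95% interval of 300.2 to 314 CPM that covers counting error only. The highest and the lowest library differed 15.9-fold. The mean was 2548 ± 2290 CPM in the libraries labelled cKO and 2528 ± 1937 CPM in those labelled control (SD, n = 3 each).

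Miat was the least abundant of the 4. Its level was 57.6, 501 and 171 CPM in the libraries labelled cKO, against 62.3, 319 and 207 CPM in those labelled control. Replicate 1 was low and replicate 2 high under both labels, so the groups overlapped. The lowest values rested on 1200 reads in the library labelled cKO 1, with an exact Poisson 95% interval of 54.4 to 60.9 CPM, and on 676 reads in the one labelled control 1, with an interval of 57.7 to 67.2 CPM. These intervals overlap, so those 2 libraries could not be ordered. The mean was 243 ± 231 CPM in the libraries labelled cKO and 196 ± 129 CPM in those labelled control (SD, n = 3 each).

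Snhg11 was high and low in the same libraries as Miat, at a higher level. Its level was 387, 2686 and 1228 CPM in the libraries labelled cKO, against 512, 1805 and 1288 CPM in those labelled control. The groups overlapped, with replicate 1 lowest and replicate 2 highest under both labels. Snhg11 was the 9th most abundant gene in the library labelled cKO 2 and the 293rd in the one labelled cKO 1. The mean was 1434 ± 1163 CPM in the libraries labelled cKO and 1202 ± 650.4 CPM in those labelled control (SD, n = 3 each).

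**Figure D1:**
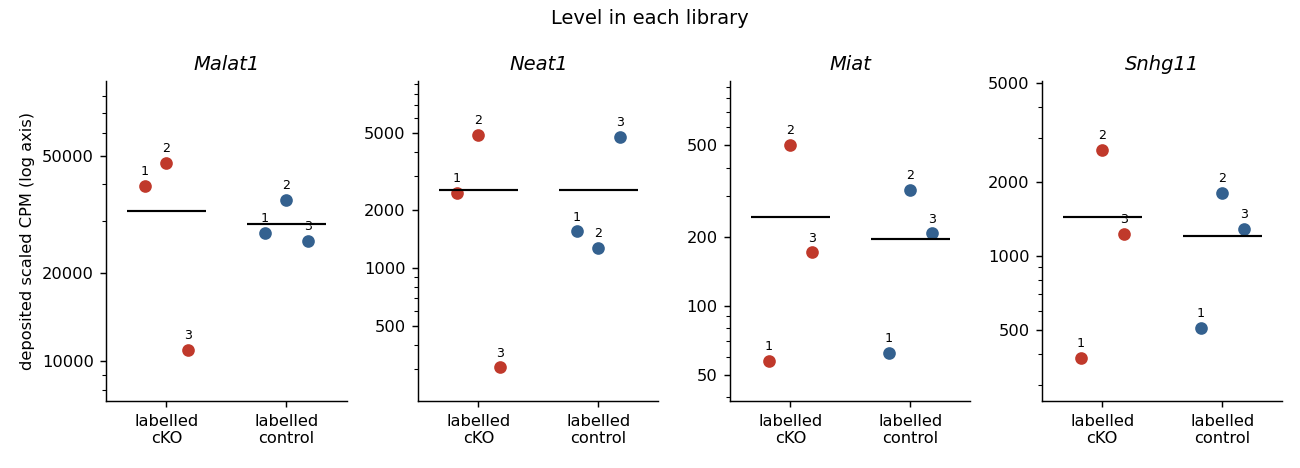
Level of Malat1, Neat1, Miat and Snhg11 in each library, in deposited CPM on log axes, with the libraries labelled cKO left of those labelled control, points numbered by replicate and bars at the group means. The groups overlap for all 4 RNAs, and the spread is widest for Neat1, from 307 to 4885 CPM.

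In GENCODE vM21, mouse build mm10, Malat1 (ENSMUSG00000092341) lies at chr19:5795690-5802672 on the minus strand, with 1 exon of 6983 bases in its longest transcript. Neat1 (ENSMUSG00000092274) lies at chr19:5824708-5845478 on the same strand, 22036 bases upstream of Malat1, with 1 exon of 20771 bases in its longest transcript. Miat (ENSMUSG00000097767) lies at chr5:112213228-112229395 on the minus strand, and Miat-205 has 7 exons and 9163 bases. Snhg11 (ENSMUSG00000044349) lies at chr2:158375638-158386145 on the plus strand, and Snhg11-201 has 5 exons and 5864 bases. GENCODE files Snhg11 as protein coding, whereas RefSeq files it as a long noncoding RNA. The antisense genes Gm37376 (at Malat1) and Gm26953 (at Miat) overlap 2 of the 4 loci and have no row of their own in the table. Whether reads were counted by strand is not stated, so reads of these antisense genes could not be told from reads of Malat1 and Miat.

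Per kilobase of annotated exon, Malat1 stood far above the others in every library. Its level averaged 4663 ± 2736 CPM per kilobase in the libraries labelled cKO and 4216 ± 747 in those labelled control (SD, n = 3 each). Snhg11 averaged 168 ± 137 CPM per kilobase in the libraries labelled cKO and 141 ± 76.3 in those labelled control. The annotated exons of Snhg11 together measured 8521 bases, against 5864 in Snhg11-201. Per kilobase of Snhg11-201 alone the level would be higher. Neat1 averaged 123 ± 110.3 CPM per kilobase in the libraries labelled cKO and 122 ± 93.3 in those labelled control. Miat averaged 26.2 ± 24.8 CPM per kilobase in the libraries labelled cKO and 21.1 ± 13.8 in those labelled control. Snhg11 and Neat1 did not differ beyond their spread. Their order also depends on which Neat1 transcript was present, since the 6-library mean of Neat1 was 122 CPM per kilobase of all its exons but 845 if every read came from the short annotated transcript of 3004 bases. Over the 6 libraries, Miat averaged 23.6 CPM per kilobase.

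The ends of Malat1 and Neat1 are shown because both are cut by RNase P, and because they share the stretches that form a stabilising triple helix in the Malat1 RNA. Each sequence is 100 bases of the mm10 genome within a GENCODE vM21 transcript, given 5′ to 3′ on the minus strand. The Malat1 stretch, chr19:5795982-5796081, is followed by a further 292 bases of the annotated transcript Malat1-201. The Neat1 stretch, chr19:5824708-5824807, ends where Neat1-201 ends. Capitals mark a U-rich run of 16 bases and an A-rich tail of 11 bases that are identical in both. They do not mark every shared stretch, since a further U-rich one before the marked run is left in lower case.
Malat1 3′ end: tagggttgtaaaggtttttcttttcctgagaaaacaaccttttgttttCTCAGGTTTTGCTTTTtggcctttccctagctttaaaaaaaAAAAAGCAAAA
Neat1 3′ end: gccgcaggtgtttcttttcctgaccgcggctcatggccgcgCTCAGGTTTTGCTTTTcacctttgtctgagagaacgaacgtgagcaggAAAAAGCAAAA

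Miat carries a repeat of the branch point motif that splicing factor 1 binds, and a stretch of 152 bases of Miat-205 with 4 copies is shown for that reason. It lies at chr5:112217309-112217460 on the minus strand of mm10, given 5′ to 3′, and capitals mark each ACTAAC.
Miat repeat: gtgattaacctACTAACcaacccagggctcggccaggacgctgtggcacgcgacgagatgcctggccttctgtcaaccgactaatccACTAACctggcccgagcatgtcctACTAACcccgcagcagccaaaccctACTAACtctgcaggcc
On the sense strand, ACTAAC occurs 11 times in Miat-205, 4 times in Neat1-201, 1 time in Snhg11-201 and 0 times in Malat1-201. The longer form TACTAAC, which contains ACTAAC, occurs 6 times in Miat-205 and 1 time in Neat1-201. Among 860 GENCODE transcripts within 1000 bases of the length of Miat-205, itself included, 3 (0.349%) hold at least 11 copies of ACTAAC and 65.6% hold at least 1. Of the same transcripts, 2 (0.233%) hold at least 6 copies of TACTAAC. These counts describe the annotated sequence, not binding in these cells.

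None of the 4 RNAs passed the test between the groups, nor did any other gene: limma called 0 of 14796 tested genes in either direction (0% called). At an unadjusted p under 0.05, which no member reached, it had 50 genes higher (0.338%) and 76 lower (0.514%), 126 in all (0.852%). The groups overlapped for all 4 members, whereas every library labelled cKO lay above every one labelled control in 2.45% of tested genes and below in 2.26%. On the recovered reads edgeR called 0 genes and DESeq2 called 1, Ifit3, an interferon-induced gene. All 4 members were among the genes tested. Fold changes are log2 differences of CPM + 1, libraries labelled cKO minus those labelled control. The log2 fold change was -0.09 for Malat1 (SE 1.39, 95% interval -3.19 to 3.00) and -0.45 for Neat1 (SE 0.92, -2.50 to 1.60). It was 0.09 for Miat (SE 0.76, -1.59 to 1.77) and 0.03 for Snhg11 (SE 0.70, -1.52 to 1.58). The adjusted p from limma was 0.9996 for each of the 4. An exact two-sided permutation test gave p = 0.9 for Neat1 and 1 for the other 3, where the smallest p that 3 libraries against 3 allow is 0.1. In this fit, which has no replicate block, the intervals hold differences of more than 2-fold in either direction for each RNA, so differences of that size are not shown to be absent.

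The sign of each fold change depended on single libraries. For Malat1 it was 0.57 without the library labelled cKO 3 and 0.048 without control 2. For Neat1 it was 0.71 without cKO 3 and 0.14 without control 3, and it reached -1.28 without cKO 2. For Miat it was -0.69 without cKO 2, -0.59 without control 1 and 0.86 without cKO 1. For Snhg11 it was -0.62 without cKO 2, -0.49 without control 1, -0.056 without cKO 3 and 0.78 without cKO 1. None of these fits called a member. The standard error of Malat1 also rested on the fit, since limma pools a gene's variance with that of genes of similar abundance, and few are as abundant: from the Malat1 values alone it was 0.68.

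**Figure D2:**
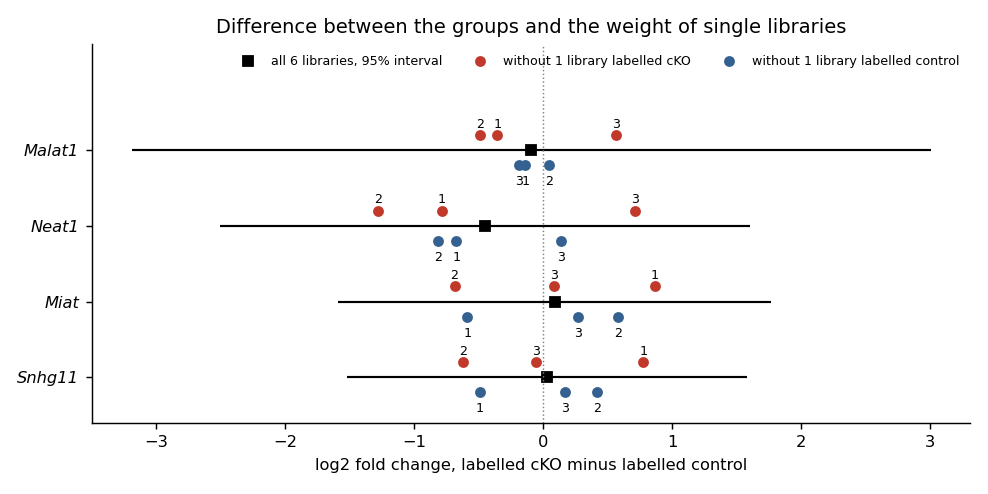
Log2 fold change of the 4 RNAs, libraries labelled cKO minus those labelled control, with limma's 95% interval as bars and the fits that leave out 1 library each as separate marks. All intervals span 0, and the fits without 1 library lie on both sides of 0 for each RNA.

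Compared with other genes, Neat1, Miat and Snhg11 spread widely between libraries of the same label. The pooled SD of log2(CPM + 1) within labels was 1.64 for Neat1, higher than in 97.3% of tested genes. It was 1.39 for Miat and 1.19 for Snhg11, higher than in 93.7% and 88.0% of tested genes, and 0.83 for Malat1, higher than in 67.5%. The median of all tested genes was 0.63. As a coefficient of variation, the spread of Malat1 was 58.7% in the libraries labelled cKO and 17.7% in those labelled control. For the other 3 RNAs it was 81.1% to 94.8% in the libraries labelled cKO and 54.1% to 76.6% in those labelled control. The difference in spread between the groups was not tested.

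Miat and Snhg11, which lie on different chromosomes, kept an almost fixed ratio. The level of Miat was 0.149, 0.187 and 0.139 of that of Snhg11 in the libraries labelled cKO, against 0.122, 0.177 and 0.160 in those labelled control. The ratio thus moved 1.53-fold over libraries in which Miat itself moved 8.71-fold and Snhg11 6.94-fold. By their values both RNAs put the libraries in the order cKO 2, control 2, control 3, cKO 3, control 1 and cKO 1, where for Miat the last pair lay within counting error. Of the other tested genes, 98 (0.662%) had this order of values. Across the 6 libraries, Pearson's r of log2(CPM + 1) was 0.99 with an exact permutation p of 0.00139, the smallest this test can give, or 0.00833 after Benjamini-Hochberg adjustment over the 6 pairs of members. Spearman's rho, which also ranks that pair by value, was 1, with an exact permutation p of 0.00278, also the smallest possible, and an adjusted p of 0.0167. Without the libraries labelled cKO 1 and control 1, the 2 farthest from the median, r stayed at 0.99. The permutation tests treat the 6 libraries as independent. Whether the replicate numbers pair them could not be settled, and if they do, these p-values may be too small. The tie is not particular to this pair: r with Snhg11 was above 0.9 for 536 of 10008 genes with a mean of at least 10 CPM (5.36%), and r with Miat for 512 (5.12%).

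Malat1 and Neat1, the neighbours on chromosome 19, did not hold a fixed ratio. The level of Malat1 was 16.1, 9.68 and 35.7 times that of Neat1 in the libraries labelled cKO, against 17.6, 27.7 and 5.38 times in those labelled control, a 6.63-fold range. Under the label cKO both RNAs were highest in replicate 2 and lowest in replicate 3. Under the label control they ran in opposite order, Malat1 highest in replicate 2 and lowest in replicate 3, and Neat1 highest in replicate 3 and lowest in replicate 2. Across the 6 libraries r was 0.80 (exact permutation p = 0.0625, adjusted p = 0.188) and rho was 0.6 (exact permutation p = 0.242, adjusted p = 0.658). Without the libraries labelled cKO 2 and cKO 3, the 2 farthest from the median of Malat1, r was -0.41 over the remaining 4. Leaving out the farthest libraries narrows the range of Malat1, so the remaining 4 cannot show whether the relation holds without them. The other 4 pairs, each of Malat1 or Neat1 with Miat or Snhg11, had r between 0.07 and 0.19, with an adjusted exact permutation p of 0.913 for each.

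**Figure D3:**
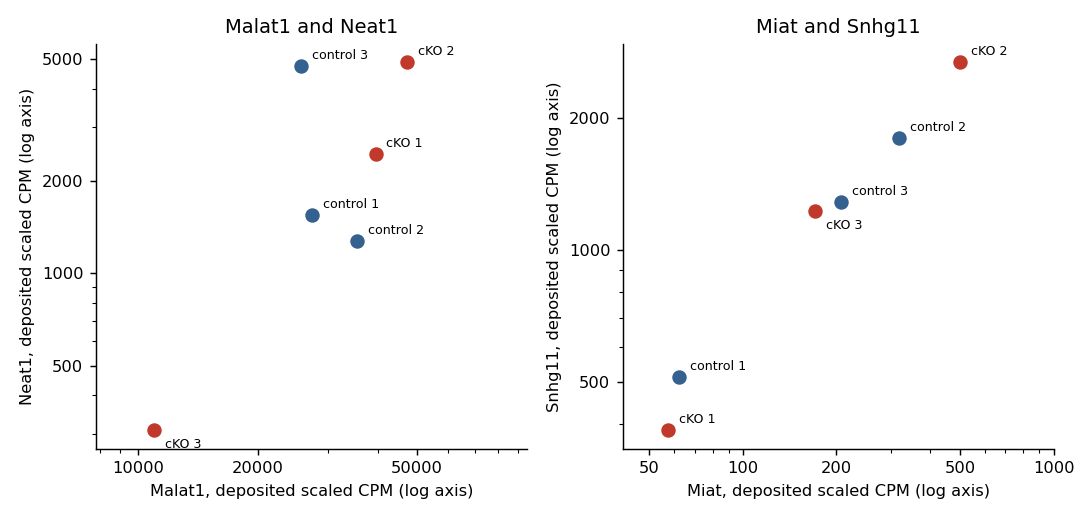
Neat1 against Malat1 and Snhg11 against Miat, in deposited CPM on log axes, with 1 point per library, marked by label and replicate. Miat and Snhg11 lie close to a line (r = 0.99), whereas the points of Malat1 and Neat1 (r = 0.80) scatter except for the libraries labelled cKO 3 at the lower and cKO 2 at the upper end.

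The promoters of Miat and Snhg11 are printed because both RNAs moved together. Each is 300 bases from RefSeq, build GRCm38.p6, most of it before the start that RefSeq gives the gene and the last 50 after it, given 5′ to 3′ on the gene's strand. The RefSeq start lies 447 bases inside the GENCODE gene for Miat and 75 bases inside it for Snhg11, so these windows do not stand at the GENCODE starts. For Malat1 both annotations give the same start. The Miat promoter, chr5:112228899-112229198 on the minus strand, has a GC content of 64.3% and 25 CpG. The Snhg11 promoter, chr2:158375463-158375762 on the plus strand, has a GC content of 60.0% and 21 CpG. Capitals mark the longest run of bases that both share on the given strand, 11 bases that occur in 18 of 32851 RefSeq promoters (0.0548%).
Miat promoter: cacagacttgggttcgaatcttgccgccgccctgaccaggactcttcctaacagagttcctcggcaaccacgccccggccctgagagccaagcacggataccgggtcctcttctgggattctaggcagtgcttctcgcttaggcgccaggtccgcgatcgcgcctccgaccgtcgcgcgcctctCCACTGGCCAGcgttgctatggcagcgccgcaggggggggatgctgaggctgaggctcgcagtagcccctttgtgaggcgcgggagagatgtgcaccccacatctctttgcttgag
Snhg11 promoter: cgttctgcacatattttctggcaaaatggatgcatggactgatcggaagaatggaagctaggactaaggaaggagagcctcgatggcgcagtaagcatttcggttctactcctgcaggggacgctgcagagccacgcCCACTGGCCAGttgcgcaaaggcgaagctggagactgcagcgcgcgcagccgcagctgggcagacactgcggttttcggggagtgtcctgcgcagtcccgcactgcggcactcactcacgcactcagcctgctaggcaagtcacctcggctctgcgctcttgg
The longest run shared by a pair of 300-base windows was looked for without a motif in mind, and no factor is assigned to it. Other pairs of promoters were not searched, so its share among promoters does not say whether such a run is unusual for a pair. Of the 4 members, 3 matched the RefSeq promoters, all but Neat1.

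Promoters of Malat1, Miat and Snhg11 were also searched on both strands for 5 motifs. The core TGACG of the cAMP response element occurs in 20.8% of all 32851 promoters, 3 times in that of Malat1 and in neither of the others. The hypoxia response element ACGTG occurs in 19.6% of promoters, 1 time in that of Malat1, where it overlaps a TGACG. The AP-1 motif TGANTCA (7.81% of promoters), the heat shock element GAANNTTC (7.86%) and TATAAA (13.6%) occur in none of the 3. The 60 bases of the Malat1 promoter at chr19:5802668-5802727, minus strand, are shown because they hold 3 of these matches, in capitals. CGTCA is TGACG read on the other strand.
Malat1 promoter stretch: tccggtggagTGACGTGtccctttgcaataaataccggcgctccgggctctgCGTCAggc
A match describes these letters only, and no match says nothing of the factor.

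The genes whose pattern over the 6 libraries was most like each member were named by the highest r of log2(CPM + 1), among 10008 tested genes with a mean of at least 10 CPM. These values are a description, since the libraries share depth and cell content. For Snhg11 they were Celsr3 (r = 0.998), an adhesion receptor of developing axons, Epha10 (0.996), an ephrin receptor, and Csmd1 (0.995), a membrane protein with complement control domains. Celsr3 was at 41.5, 415 and 142 CPM in the libraries labelled cKO, against 56.8, 247 and 164 CPM in those labelled control. For Miat they were Tsc2 (r = 0.997), an inhibitor of mTOR signalling, Bzrap1 (0.997), a presynaptic scaffold protein, and Cacna1d (0.996), a subunit of L-type calcium channels. Bzrap1 was at 71.0, 662 and 190.0 CPM in the libraries labelled cKO, against 62.0, 383 and 242 CPM in those labelled control, a wider range than that of Miat, whereas Tsc2 ranged 1.62-fold.

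For Malat1 the most similar genes were Pcdhgb7 (r = 0.991), a clustered protocadherin, Map7 (0.990), a microtubule-associated protein, and Hbp1 (0.984), a transcriptional repressor. Map7 was at 575, 561 and 187 CPM in the libraries labelled cKO, against 413, 495 and 375 CPM in those labelled control, so the library labelled cKO 3 was lowest here too. For Neat1 they were Fam76b (r = 0.995), Olfml2b (0.993), an extracellular matrix protein, and Ranbp10 (0.980), a Ran-binding protein. Fam76b was at 48.6, 61.4 and 27.9 CPM in the libraries labelled cKO, against 45.8, 40.0 and 59.8 CPM in those labelled control. These genes had the shape of Neat1 but not its size, with ranges of 1.68-fold to 2.20-fold against 15.9-fold for Neat1. Fewer genes ran with Malat1 or Neat1 than with Miat or Snhg11: r was above 0.9 for 123 genes with Malat1 (1.23%) and for 80 with Neat1 (0.799%).

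No gene printed here from beside the 4 RNAs in the genome was called. Frmd8, which encodes an iRhom-binding protein and lies 4224 bases from Neat1, averaged 104 ± 50.8 CPM in the libraries labelled cKO and 109 ± 26.0 CPM in those labelled control, and its r was 0.51 with Neat1 and 0.40 with Malat1. Ltbp3, which binds latent TGF-beta, averaged 37.6 ± 5.41 CPM in the libraries labelled cKO and 32.7 ± 3.44 CPM in those labelled control, and its r with Malat1 was 0.60. Slc25a45, a mitochondrial carrier, averaged 11.1 ± 13.9 CPM in the libraries labelled cKO and 2.27 ± 3.30 CPM in those labelled control, with a log2 fold change of 1.70 (SE 0.97) and an adjusted p of 0.9996 from limma. Near Snhg11, Ralgapb, a subunit of a Ral GTPase-activating complex, averaged 208 ± 31.8 CPM in the libraries labelled cKO and 225 ± 27.7 CPM in those labelled control (SD, n = 3 each). Snhg17, another small nucleolar RNA host gene, averaged 9.10 ± 5.30 CPM in the libraries labelled cKO and 8.91 ± 2.64 CPM in those labelled control. Lbp, the lipopolysaccharide-binding protein, averaged 2.90 ± 2.73 CPM in the libraries labelled cKO and 0.843 ± 1.06 CPM in those labelled control. The r with Snhg11 was 0.72 for Ralgapb, 0.04 for Snhg17 and -0.84 for Lbp, which was at 0 in the libraries labelled cKO 2 and control 2. The neighbours of Miat with a row in the table, among them the crystallin genes Cryba4 and Crybb1, were too low to be tested.

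Of the genes that build the bodies these RNAs live in, none was called and none reached an unadjusted p under 0.05. Over the 7 lists of partners and related RNAs, 127 genes were tested, 38 with a fold change above 0 and 89 below, against 48.0% above 0 over all tested genes. Their median log2 fold change was -0.13, against -0.02 over all tested genes. In 7 of the 127 (5.51%) the groups did not overlap, against 4.70% of all tested genes, so the members of the lists separated about as often as other genes. The paraspeckle list had 13 higher and 17 lower of 30 (median -0.05). Sfpq, a core paraspeckle protein, averaged 368 ± 129 CPM in the libraries labelled cKO and 463 ± 22.9 CPM in those labelled control (log2 fold change -0.40, SE 0.35). Its partner Nono averaged 114 ± 47.7 CPM in the libraries labelled cKO and 133 ± 51.9 CPM in those labelled control, and the third core protein Pspc1 averaged 76.0 ± 9.94 CPM in the libraries labelled cKO and 82.3 ± 7.89 CPM in those labelled control. Each of these 3 means differed between the groups by less than the larger of its SDs.

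The nuclear speckle list had 7 higher and 22 lower of 29 (median -0.14). The splicing factor Srsf1 averaged 189 ± 11.3 CPM in the libraries labelled cKO and 198 ± 21.8 CPM in those labelled control. Srsf2 averaged 127 ± 14.5 CPM in the libraries labelled cKO and 155 ± 30.2 CPM in those labelled control, and Srsf3 averaged 143 ± 39.2 CPM in the libraries labelled cKO and 178 ± 52.1 CPM in those labelled control. Of 4 splicing regulators tied to Miat, 2 were higher and 2 lower (median -0.11). Sf1, splicing factor 1 itself, averaged 115 ± 1.23 CPM in the libraries labelled cKO and 139 ± 26.0 CPM in those labelled control, while Miat itself moved 8.71-fold. Qk, the quaking RNA-binding protein, abundant in glia, was at 5954, 2381 and 1462 CPM in the libraries labelled cKO, against 4602, 3057 and 3410 CPM in those labelled control, highest in replicate 1 under both labels, where Miat was lowest. Celf3, a neuronal regulator of the same list, was at 25.9, 76.1 and 54.7 CPM in the libraries labelled cKO, against 22.0, 76.1 and 60.8 CPM in those labelled control, low in replicate 1 under both labels as Miat was.

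Genes of RNase P and 3′ end maturation had 2 higher and 10 lower of 12 (median -0.34). Elac2, which trims tRNA 3′ ends, averaged 25.1 ± 4.41 CPM in the libraries labelled cKO and 28.1 ± 6.02 CPM in those labelled control. Rpp14, an RNase P subunit, averaged 11.5 ± 8.08 CPM in the libraries labelled cKO and 15.1 ± 1.04 CPM in those labelled control. Rpp21, another subunit, averaged 3.10 ± 3.25 CPM in the libraries labelled cKO and 3.47 ± 2.56 CPM in those labelled control. The genes of N6-methyladenosine, a base modification carried by Malat1, had 3 higher and 6 lower of 9 (median -0.06). Mettl3, the methyltransferase, averaged 15.7 ± 5.91 CPM in the libraries labelled cKO and 22.6 ± 4.37 CPM in those labelled control (log2 fold change -0.54). Its partner Mettl14 averaged 16.6 ± 4.00 CPM in the libraries labelled cKO and 16.2 ± 11.5 CPM in those labelled control. Wtap, which joins both in the writer complex, averaged 57.6 ± 22.4 CPM in the libraries labelled cKO and 50.5 ± 16.1 CPM in those labelled control. Other small nucleolar RNA host genes had 6 higher and 13 lower of 19 (median -0.15). Snhg1 averaged 19.1 CPM in the libraries labelled cKO and 19.5 CPM in those labelled control, far below Snhg11. Snhg3 averaged 7.24 ± 5.48 CPM in the libraries labelled cKO and 8.82 ± 4.77 CPM in those labelled control, and Snhg4 averaged 4.91 ± 1.63 CPM in the libraries labelled cKO and 6.30 ± 2.81 CPM in those labelled control. Other long noncoding RNAs had 5 higher and 19 lower of 24 tested (median -0.27).

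Chosen after their values were seen, the 7 genes of these lists with no overlap between the groups were Bclaf1 and Rmst, higher in the libraries labelled cKO, and Nudt21, Ythdc1, Snhg5, Dlx6os1 and Mir17hg, lower. Ythdc1 is the nuclear reader of N6-methyladenosine. It was at 119.56, 97.8 and 85.4 CPM in the libraries labelled cKO, against 144, 119.606 and 133 CPM in those labelled control. Its values in the libraries labelled cKO 1 and control 2 were almost equal, so the groups barely missed overlapping. Bclaf1, a speckle protein, was at 245, 261 and 252 CPM in the libraries labelled cKO, against 224, 189 and 180 CPM in those labelled control. Neither passed the test, with a log2 fold change of -0.40 (SE 0.29) for Ythdc1 and 0.36 (SE 0.27) for Bclaf1.

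Among the other long noncoding RNAs, Meg3, an imprinted transcript abundant in neurons, was likewise lowest in replicate 1 and highest in replicate 2 under both labels. Meg3 was at 889.5, 4325 and 1826 CPM in the libraries labelled cKO, against 1125, 3082 and 2408 CPM in those labelled control, and its r was 0.99 with Miat and 0.99 with Snhg11. From the same imprinted locus, Rian averaged 282 ± 127 CPM in the libraries labelled cKO and 274 ± 87.1 CPM in those labelled control, and Mirg averaged 13.1 ± 11.996 CPM in the libraries labelled cKO and 9.31 ± 6.06 CPM in those labelled control. Kcnq1ot1, an imprinted nuclear antisense transcript, had an r of 0.98 with Malat1. It was at 632, 647 and 239 CPM in the libraries labelled cKO, against 533, 616 and 436 CPM in those labelled control. Kcnq1ot1 was singled out after its values were seen.

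**Figure D4:**
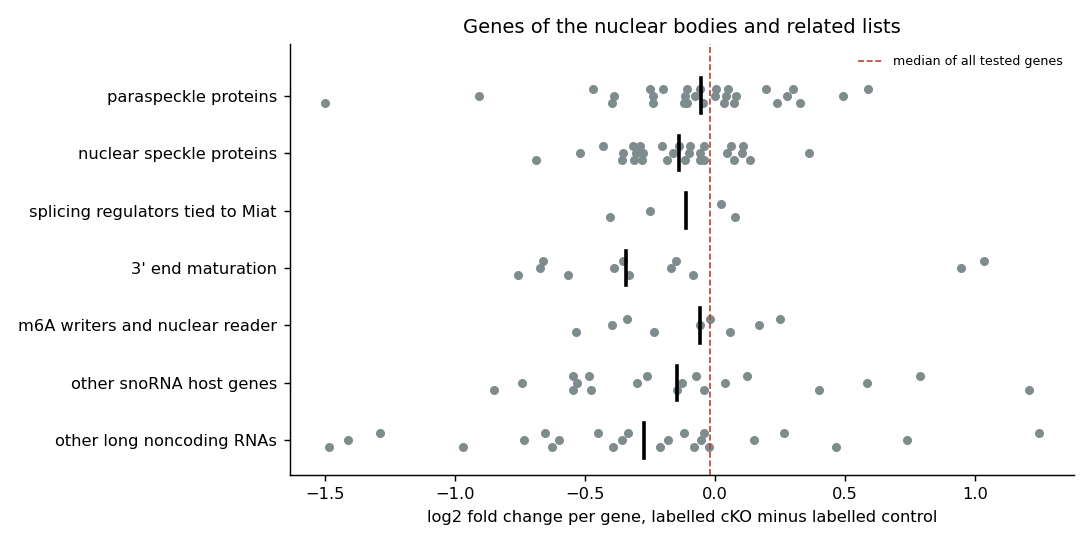
Log2 fold change, libraries labelled cKO minus those labelled control, of each tested gene in the 7 lists of partners and related RNAs, with the median of each list and the median of all 14796 tested genes. The list medians lie between -0.34 and -0.05, and no gene of any list was called.

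Markers of other cells also varied between libraries. The summed level of 9 mural and fibroblast markers, led by Col1a1, was 2686, 137 and 2641 CPM in the libraries labelled cKO, against 4730.0, 388 and 569 CPM in those labelled control. It was lowest in replicate 2 under both labels, where Miat and Snhg11 were highest, and Lum was at 0 in a library. The library labelled cKO 3, lowest in Malat1 and Neat1, had the highest sum of the neuronal markers (7968 CPM, led by Snap25). It also had the lowest sums of the oligodendrocyte markers (11280 CPM) and of 9 microglial markers, of which 7 were tested. Under the label cKO, Miat and Snhg11 were highest in replicate 2, whereas the neuronal sum was highest in replicate 3. Under the label control, Miat, Snhg11 and the neuronal sum were each highest in replicate 2. The microglial sum was 74.7, 63.6 and 38.3 CPM in the libraries labelled cKO, against 49.96, 66.6 and 67.8 CPM in those labelled control, and C1qa, C1qc and Tmem119 were at 0 in at least 1 library. The sum of 9 astrocyte markers, led by Slc1a2, was 1105, 1861 and 858 CPM in the libraries labelled cKO, against 861, 1147 and 604 CPM in those labelled control. The sum of 8 endothelial markers, led by Cdh5, was 155, 93.1 and 122 CPM in the libraries labelled cKO, against 160, 71.1 and 101 CPM in those labelled control, with Cldn5 at 0 in a library. The part of these cells in the levels of the 4 RNAs was not tested.

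**Figure D5:**
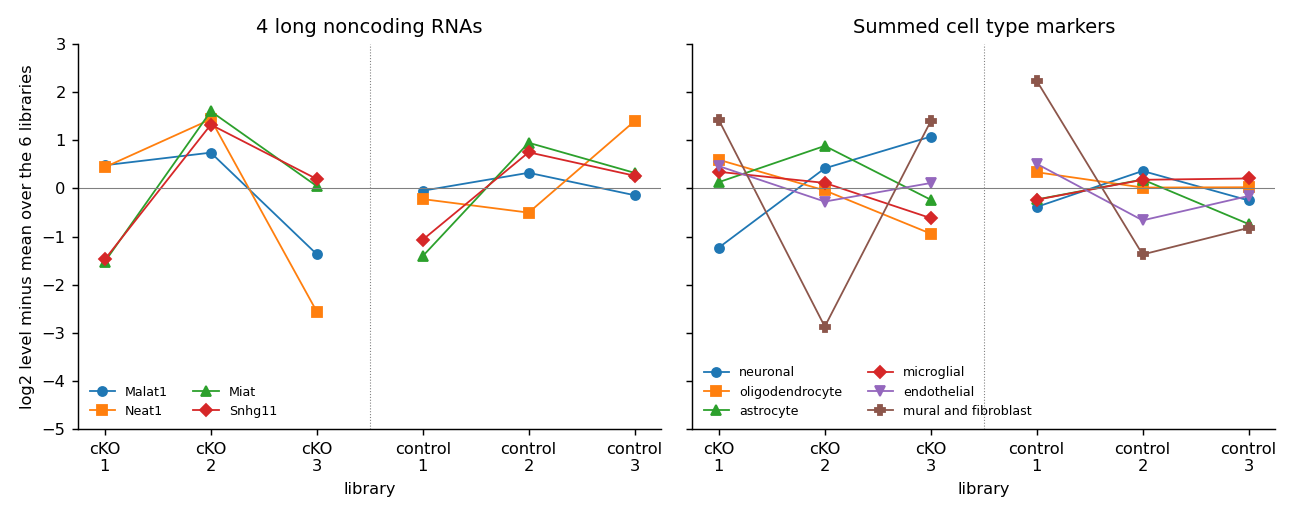
Log2 level in each library minus the mean of the 6 log2 levels, for the 4 RNAs (left) and for the summed markers of 6 cell types (right), with the libraries labelled cKO left of those labelled control and lines joining libraries of 1 label only to guide the eye. Miat and Snhg11 follow each other in every library, Neat1 is lowest in the library labelled cKO 3, and the mural and fibroblast sum is lowest, at 137 CPM, in the library labelled cKO 2.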

How the data were processed

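Libraries of total RNA from sorted cells were made with an Ovation SoLo kit, per the labels' protocols. Per the submitters' processing notes, the tools were Trimmomatic, HISAT2, featureCounts and edgeR (versions not given) and the build mm10. No source used here gives the strand setting, the counting annotation or the handling of multi-mapping reads. The deposited values are a normalized signal: depth-scaled counts (CPM) rescaled by the authors per library, since column totals ran from 961962 to 1027958. In each library all values lay within 0.01 of a whole multiple of 1 step, so whole reads were recovered, and 100% of values came out whole. The design had assumed plain CPM, and its test was kept.

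In R 4.3.3, limma 3.58.1 compared log2(value + 1) between the 3 libraries labelled cKO and the 3 labelled control, using its trended prior. It was fitted to the 14796 genes that reached a value of 1 in 3 or more libraries. That scale understates changes of low genes. P-values were Benjamini-Hochberg adjusted over all tested genes and called under 0.05. The procedure was tested on simulated data. Whether each library is a separate animal is not stated, so p-values reflect the spread among these libraries alone, part of which may be technical. Correlations, permutation tests and sequence searches used Python 3.11.15 with scipy 1.17.1. GENCODE vM21 gave positions and lengths, and RefSeq gave promoters.

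The members and lists were chosen with earlier results of these data known. Named genes were the first 3 tested of each list as written, apart from those said to be chosen after their values were seen, the 3 genes most correlated with each member (mean at least 10, predicted genes left out), and annotated neighbours with a row. Not every gene of this rule is reported here. As alternatives, the pseudocount was set to 0.1 and 5, the filter was dropped or raised to 5, and other scalings were used, as were a replicate block, fits without single libraries, and edgeR 4.0.16 and DESeq2 1.42.0 on recovered reads. The alternatives without both libraries numbered 2 and with totals without Rn45s were chosen after seeing the data.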

Additional observations from a re-analysis of the deposited data

How the results depend on the processing

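No alternative called any of the 4 RNAs. Over the 18 alternatives the adjusted p ran from 0.963 to 1 for Malat1, from 0.860 to 1 for Neat1, from 0.778 to 1 for Miat and from 0.783 to 1 for Snhg11. The number of genes called was 0 except with DESeq2, which called 1. With edgeR and DESeq2 on the recovered reads the log2 fold change was 0.15 in both for Malat1, and 0.017 and 0.027 for Neat1, against -0.09 and -0.45 with limma. With quantile normalization it was -0.054 for Snhg11 and 0 for Malat1, where a rank of 2 in every library fixed it in advance. Leaving out 1 library at a time, it ran from -0.49 to 0.57 for Malat1, from -1.28 to 0.71 for Neat1, from -0.69 to 0.86 for Miat and from -0.62 to 0.78 for Snhg11. Without both libraries numbered 2, chosen after seeing the data, it was -1.64 for Neat1, -0.19 for Miat and -0.24 for Snhg11. Apart from the 0 for Malat1, the cause of these differences was not tested. Among the limma fits the SE of Malat1 ran from 0.55 with quantile normalization to 6.98 with no filter. Quantile normalization left Malat1 no spread of its own, so that 0.55 came from the variance of other genes. The next lowest SE was 0.69, with the filter at 5.

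Whether the replicate numbers pair the libraries could not be settled. Deviations of same-numbered libraries correlated at 0.49, 0.30 and 0.03 for numbers 1, 2 and 3. Every library correlated best with its own number, by a small margin for number 3. With the replicate block limma called 0 genes. In this balanced design the block cannot move a fold change (-0.09, -0.45, 0.09 and 0.03 for Malat1, Neat1, Miat and Snhg11). The SE was 0.27 with the block against 0.76 without it for Miat, 0.34 against 0.70 for Snhg11, 1.59 against 1.39 for Malat1 and 0.93 against 0.92 for Neat1.

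Without the block, the intervals of the 4 RNAs reach differences above 2-fold. For Miat and Snhg11 the SE was smaller with the block, so this need not hold there. Each value of the 4 RNAs rested on at least 676 reads, and the cause of the wide intervals was not tested.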
